A study of Homo sapiens with 41 samples.

Results

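RAD21 occupancy in T47D cells that had been returned to isotonic medium after hyperosmotic stress was set against RAD21 occupancy in unstressed cells, to ask which binding sites had come back. T47D is an established line of luminal cells from a human breast carcinoma. All cells had first been deprived of steroid hormones and then of serum, which holds them in G0/G1, so hormone-free and serum-free culture is common to both groups. The recovery group had 3 libraries from cells given 110 mM NaCl for 1 h and then isotonic medium for 1 h, and the no stress group had 3 libraries from cells given neither. The titles give 110 mM, and the series text gives a slightly lower concentration. These 6 libraries were chosen by their titles out of 41 samples of the series. Replicates 1 and 2 of each group are numbered in the titles, and replicate 3 comes from a second submission, called set 2 here. All libraries used the same RAD21 antibody. Recovery replicate 3 has no triptolide in its title, while its pre-treatment tag names 500 nM triptolide, an inhibitor of transcription initiation. The titles were followed, and values without that library are given where they matter.

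RAD21 is the subunit that closes the cohesin ring around DNA. Cohesin extrudes chromatin loops and stalls at CTCF, an insulator protein bound to its motif, so that in most cell types RAD21 peaks lie on CTCF sites. A smaller part of cohesin is found at active promoters, where it is loaded. High extracellular salt draws water from the cell and condenses chromatin, and isotonic medium reverses the change in volume.

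Each library gave a single list of narrow peaks on hg38, and chromosomes 1 to 22 and X were used. Read totals are not in the lists. The caller's background grows with sequencing depth and fragment length. Its commonest value over peaks was 0.80, 0.57 and 1.97 pileup units in recovery replicates 1 to 3. In no stress replicates 1 to 3 it was 0.53, 0.75 and 1.51. That value was found at 8.73, 18.5 and 12.2% of peaks in recovery and at 16.1, 9.99 and 33.6% without stress. Recovery replicate 2 stood apart from the other recovery libraries in peak number and in enrichment, and had the lowest background of the recovery libraries. The part of depth in the results was not tested. Pol II regions of unstressed cells covered over 50% of the gene in both Pol II lists for 6 of 9 luminal markers and for 0 of 9 markers of other cell types. KRT18 was at 0% in both lists, and CD14 reached 71.9% in 1 of them. The labels do not say whether replicates came from separate cultures, so the spread behind each p-value may be technical.

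Far fewer RAD21 peaks were called in recovery replicates 1 and 3 than in any unstressed library, whereas recovery replicate 2 lay inside the unstressed range. Recovery replicates 1 to 3 had 4397, 20400 and 6492 peaks, against 18297, 13762 and 24931 in no stress replicates 1 to 3. The groups overlapped through recovery replicate 2 alone. On the log2 scale peak number averaged 13.03 ± 1.15 in recovery and 14.17 ± 0.43 without stress (SD, n = 3 each), a difference of -1.14 that did not exceed the spread between libraries (exact 2-sided permutation test, p = 0.3, smallest possible 0.1). Within set 1, which lacks the library tagged with triptolide, the difference was -0.74, and within set 2, with 1 library against 1, it was -1.94. Without recovery replicate 2 it was -1.79 (exact permutation p = 0.1, again the smallest possible). Without recovery replicate 3, the library tagged with triptolide, it was -0.96 (exact permutation p = 0.5).

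Peak heights followed the same split. The highest fold enrichment, the authors' own value for a peak over the caller's background, was 24.1, 73.4 and 20.2 in recovery replicates 1 to 3, against 53.7, 54.7 and 53.2 without stress. The median fold enrichment was 6.80, 8.34 and 5.67 in recovery, against 8.47, 7.38 and 7.92 without stress. Of the peaks called in recovery, 99.7, 89.5 and 99.1% overlapped a peak of at least 1 unstressed library by 1 bp or more.

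**Figure D1:**
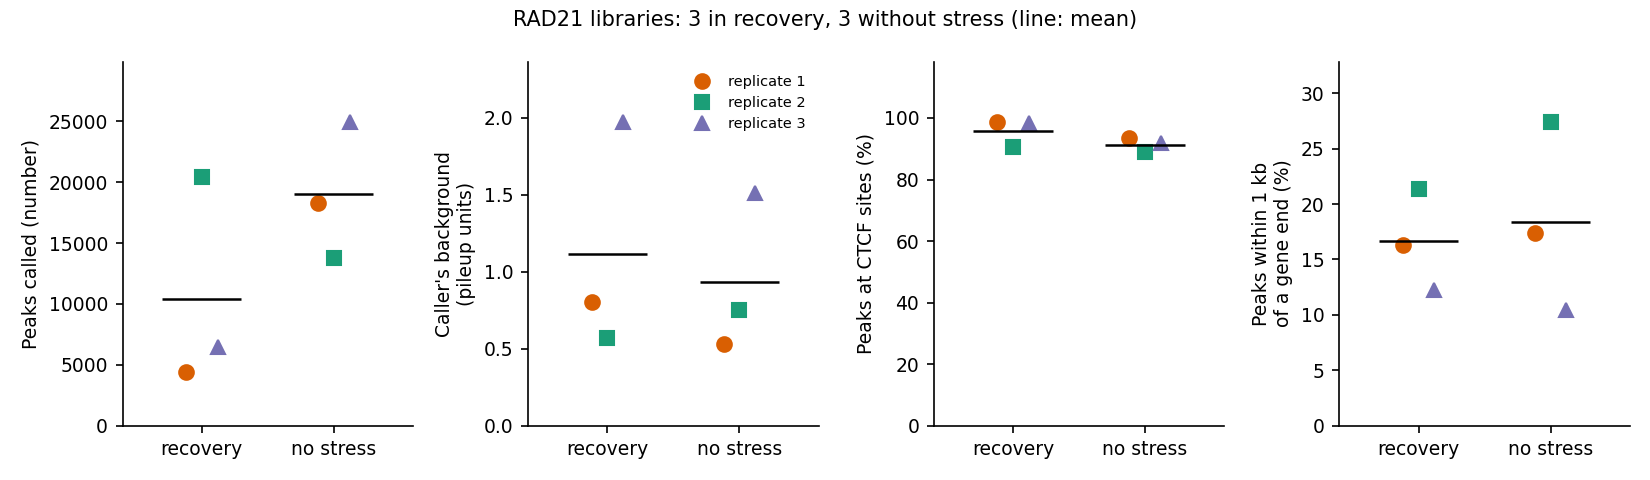
RAD21 peaks called, caller's background in pileup units, percent of peaks at CTCF sites and percent within 1 kb of a gene end, for 3 recovery (left) and 3 no stress (right) libraries; points are libraries and lines are means. In peak number recovery replicate 2, with 20400 peaks, lies among the unstressed libraries, and replicates 1 and 3 lie below all of them. In the percent at CTCF sites replicates 1 and 3 lie above all of them.

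Overlapping peaks of the 6 lists were merged into 31299 sites. Of these, 10095 were present in all 3 unstressed lists and are called shared sites. Recovery replicate 1 held 40.9% of the shared sites (exact binomial 95% interval 40.0 to 41.9%), replicate 2 held 97.8% (97.5 to 98.1%) and replicate 3 held 56.7% (55.7 to 57.7%). These intervals cover counting error alone. The intervals of the 3 libraries did not overlap, and the mean share was 65.1 ± 29.4% (SD, n = 3). Without recovery replicate 3 the mean share was 69.4%. At 1 h of NaCl, before the return to isotonic medium, replicates 1 to 3 held 39.2, 60.3 and 50.8% of the same sites. Recovery replicates 1 and 3 lay within the range of the stressed libraries, and recovery replicate 2 lay above it.

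Shared sites were chosen on the unstressed lists, so the same measure was also taken within the unstressed group. Of the sites common to 2 unstressed lists, over the 3 choices of such a pair, recovery replicate 1 held 27.2 to 39.2%, replicate 2 held 85.8 to 96.8% and replicate 3 held 39.8 to 54.3%. The remaining unstressed list held 63.8 to 95.4% of the same sites. On the same sites recovery replicates 1 and 3 were below the remaining unstressed list each time. Replicate 2 was above it each time, with 96.8% against 95.4% in no stress replicate 1, 85.8% against 63.8% in replicate 2 and 96.6% against 90.0% in replicate 3.

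The recovery lists came closer to the unstressed ones when list length was held equal. With the 4397 strongest peaks of each list, by the authors' -log10 p, 2611 sites were shared by all unstressed lists. Recovery replicates 1 to 3 held 87.8, 95.9 and 92.0% of them, against 73.8, 83.3 and 75.0% for the 1 h libraries cut to the same length. Of the sites common to 2 unstressed lists at this length, the recovery lists held 80.6 to 94.2%, the remaining unstressed list held 76.7 to 93.1% and the 1 h lists held 62.9 to 81.6%. The ranges of recovery and unstressed lists overlapped at this length. It is the full length of recovery replicate 1, which was left whole, while the other lists kept their strongest peaks only. The parts of list length and of site strength in the change were not tested.

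Whether a site was called in the short recovery lists went with its enrichment before stress. Shared sites were ranked by their mean percentile of fold enrichment in the unstressed lists and divided into 10 classes. In the lowest class recovery replicates 1 to 3 held 8.71, 93.4 and 7.72% of the sites, and in the highest class 94.7, 100 and 98.6%. In the sixth class the shares were 38.4, 99.4 and 63.9%. Replicates 1 and 3 climbed over the whole range, while replicate 2 was nearly complete throughout. The 1 h libraries climbed likewise, with 3.56, 30.9 and 4.16% in the lowest class and 87.3, 96.2 and 94.3% in the highest.

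**Figure D2:**
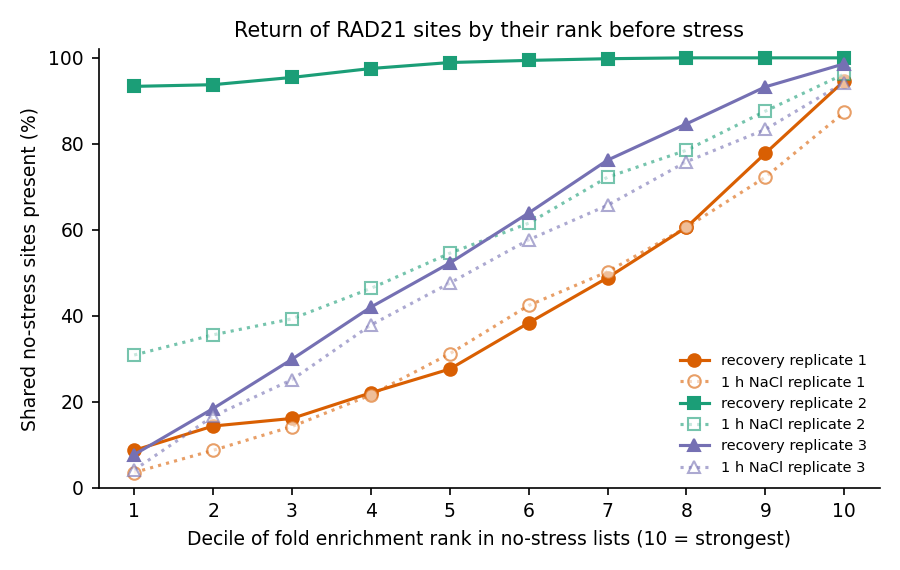
Percent of shared no-stress sites present in each RAD21 recovery library (filled symbols, solid lines) and each 1 h NaCl library (open symbols, dotted lines), by decile of fold enrichment rank in unstressed cells. Recovery replicates 1 and 3 run from 8.71 and 7.72% in the lowest decile to 94.7 and 98.6% in the highest, and replicate 2 stays above 93%.

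Sites were next sorted by how many recovery lists held them. All 3 recovery lists held 3551 shared sites, 11.3% of all sites and 35.2% of the shared ones, and these are called returned. Recovery replicate 2 was the sole holder of 3588 shared sites, and replicates 2 and 3 without replicate 1 held 2159. No recovery list held 204 shared sites, 0.652% of all sites and 2.02% of the shared ones, and these are called not returned. Without recovery replicate 2 the sites not returned numbered 3790, and without no stress replicate 2, the shortest unstressed list, 2162. They numbered 317 without no stress replicate 1 and 359 without no stress replicate 3. Without recovery replicate 1 the returned sites numbered 5710. Without recovery replicate 3, the library tagged with triptolide, 217 sites were not returned and 4128 returned.

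The state of a site at 1 h of NaCl ran parallel to its state in recovery. Of 3264 shared sites absent from all 1 h lists, recovery replicates 1 to 3 held 15.8, 94.4 and 29.0%. Of these sites, 335 were in all 3 recovery lists and 173 in none. Of 3482 shared sites present in all 1 h lists, the recovery lists held 68.5, 99.9 and 84.9%, and 2 sites were in none. Among the sites not returned, 84.8% had been absent from all 1 h lists, against 32.3% of all shared sites.

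**Figure D3:**
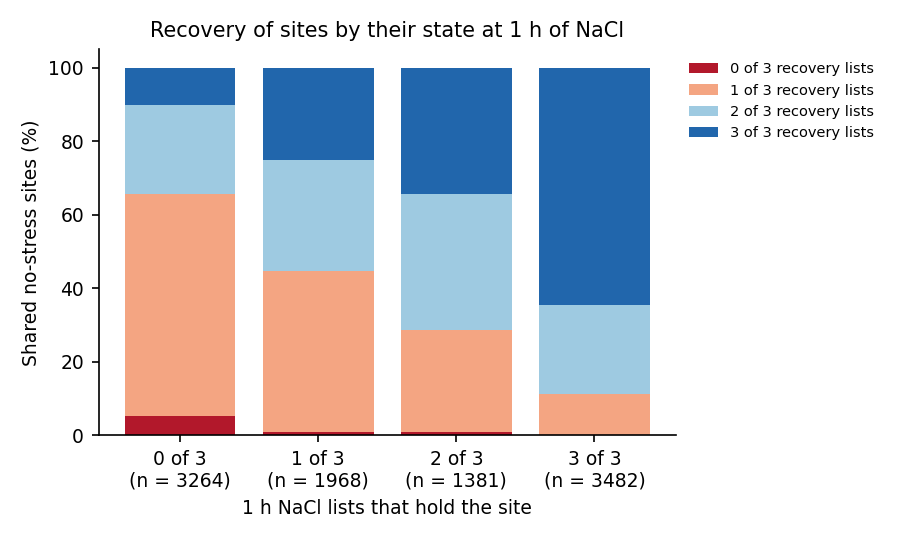
Percent of shared no-stress sites held by 0, 1, 2 or 3 RAD21 recovery lists (colours), by the number of 1 h NaCl lists that held the site (horizontal axis, with the number of sites). The part in all 3 recovery lists is 10.3% for sites absent from every 1 h list and 64.6% for sites present in all of them. Rank before stress is not held equal.

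The 204 sites not returned ranked low before stress and were narrow, and a smaller share of them lay on CTCF. Their median rank was 37.4 percent, against 84.0 for returned sites and 66.9 for all shared sites, and their median width as merged over the 6 lists was 423 bp, against 552 bp for returned sites, to which recovery peaks add. CTCF sites, those in at least 2 of 3 CTCF lists of unstressed cells, overlapped 86.8% of the sites not returned (exact binomial 95% interval 81.3 to 91.1%), 99.8% of returned sites and 98.3% of all shared sites. Of the sites not returned, 42.6% lay in gene bodies and 47.5% between genes, against 34.0 and 50.2% of returned sites. A Pol II region of unstressed cells overlapped 28.9% of them and 30.7% of returned sites. These are descriptions, since width and CTCF overlap move with rank in the same lists.

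The same sites were looked up in a pair of further recovery lists. A RAD21 recovery library of set 2 titled with triptolide pre-treatment held 173 of the 204 sites (84.8%, exact binomial 95% interval 79.1 to 89.4%) and 98.9% of all shared sites. The single CTCF recovery library without triptolide in its title held 86.3% of the 204 sites and 98.9% of all shared sites. Its pre-treatment tag names triptolide, as does that of RAD21 recovery replicate 3. Of the 3603 shared sites held by 1 RAD21 recovery list, 98.2% had a CTCF peak in recovery.

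Within 1 kb of the end of a protein-coding gene lay 1752 shared sites, of which 20 (1.14%) were in no recovery list and 564 (32.2%) in all of them. A further 797 (45.5%) were in 1 recovery list and 371 (21.2%) in 2. Among those 20, the best ranked lay 965 bp from the 3′ end of IL6ST, the signal-transducing receptor subunit for interleukin 6 cytokines (chr5:55936060-55936437). It had no recovery peak and fold enrichments of 12.4, 7.42 and 7.62 in no stress replicates 1 to 3. A site 415 bp from the end of MID1IP1 (chrX:38805669-38806117), which promotes fatty acid synthesis, likewise had no recovery peak, against 9.65, 6.80 and 8.72 without stress. Both were called in the recovery library titled with triptolide.

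At gene starts, the sites not returned included those of KLHL22, INAVA, TOB1, NECTIN2 and PRKAB1. The KLHL22 site (chr22:20496391-20496810), near the gene of a ubiquitin ligase adaptor, had no recovery peak, against 7.60, 6.35 and 6.16 without stress. The INAVA site (chr1:200891488-200891916), at the promoter of a regulator of innate immune signalling and cell junctions, had none in recovery, against 7.22, 4.97 and 5.72. Of the 10 sites named here, it alone was missing from the triptolide-titled recovery library too. The TOB1 site (chr17:50867396-50868052), at the promoter of an antiproliferative protein, had none in recovery, against 5.70, 4.82 and 6.94, and it alone of the 10 had no CTCF site. The other named sites, near ASTL, EGLN2, INSRR, NECTIN2 and PRKAB1, had fold enrichments between 3.75 and 8.39 without stress. Of the 10 named sites, 9 were absent from every 1 h list and IL6ST was in 1 of them.

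The returned sites named here were chosen for high rank in every unstressed list, and their fold enrichment was lower in the short recovery lists. The site over the start of DHX8, an RNA helicase that releases mRNA from the spliceosome (chr17:43483431-43484022), had 14.8, 50.5 and 13.1 in recovery replicates 1 to 3, against 41.1, 40.1 and 33.0 without stress. The site over the start of PDS5B (chr13:32586144-32587365), which encodes a regulatory partner of cohesin itself, had 17.5, 62.6 and 9.16, against 44.7, 49.2 and 21.9. The site over the start of MAML2 (chr11:96342819-96343632), a Notch coactivator, had 16.6, 42.4 and 13.9, against 38.9, 31.1 and 24.7. At these 3 sites recovery replicate 2 was above every unstressed value, and recovery replicates 1 and 3 were below every one.

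Other returned sites lay near genes with mixed roles. A site near the end of THBS4, a matrix glycoprotein, had 11.2, 39.0 and 6.96 in recovery, against 33.7, 35.9 and 30.2 without stress. A site 864 bp from the start of STAT6, the transcription factor activated by interleukin 4, had 6.18, 30.8 and 8.93, against 34.6, 29.2 and 26.4. The remaining named sites, near CYB5R2, THPO, MCHR1, NFAM1 and MYOM1, ran from 8.26 to 48.3 in recovery and from 22.4 to 37.5 without stress. Of the 10 named returned sites, 9 were in all 3 lists at 1 h and that near MCHR1 in 1 of them. A fold enrichment is the caller's value within a list, and no test was made on it across lists.

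The promoters of 3 genes whose site did not return and of 3 whose site returned are shown to give the sequence of starts next to or under a RAD21 site. They come from RefSeq's table (GRCh38.p14, 250 bases before to 50 after the annotated start, read along the gene). Of the promoters whose window overlaps a site, they are the highest ranked in each class. Sites farther from a start, such as that of KLHL22, were passed over whatever their rank. MCF2L has the site at a start inside the gene, with no recovery peak, against 4.21, 3.13 and 4.82 without stress. Capitals mark matches on either strand to AGGGGGC, to its variant AGAGGGC, to the form AGGTGGC or to the form AGATGGC, common versions of the CTCF core.
INAVA (not returned, chr1:200891281-200891580, + strand): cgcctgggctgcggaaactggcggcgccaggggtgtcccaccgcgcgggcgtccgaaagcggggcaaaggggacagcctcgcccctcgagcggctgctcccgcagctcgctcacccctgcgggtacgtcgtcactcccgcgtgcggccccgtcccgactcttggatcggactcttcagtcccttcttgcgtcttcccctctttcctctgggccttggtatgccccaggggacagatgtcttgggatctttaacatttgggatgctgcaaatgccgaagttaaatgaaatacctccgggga
TOB1 (not returned, chr17:50867929-50868228, - strand): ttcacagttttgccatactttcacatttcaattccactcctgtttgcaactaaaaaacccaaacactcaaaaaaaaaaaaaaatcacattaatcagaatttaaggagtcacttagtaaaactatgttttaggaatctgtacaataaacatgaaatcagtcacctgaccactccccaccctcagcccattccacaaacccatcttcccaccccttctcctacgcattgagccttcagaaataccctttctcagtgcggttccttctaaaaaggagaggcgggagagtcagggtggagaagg
MCF2L (not returned, chr13:112968964-112969263, + strand): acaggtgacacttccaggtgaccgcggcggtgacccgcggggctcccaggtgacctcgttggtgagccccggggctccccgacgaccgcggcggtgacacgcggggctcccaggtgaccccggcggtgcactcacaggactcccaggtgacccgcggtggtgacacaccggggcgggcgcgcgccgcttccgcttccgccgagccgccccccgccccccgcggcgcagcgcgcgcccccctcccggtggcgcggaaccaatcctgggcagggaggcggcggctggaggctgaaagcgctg
DHX8 (returned, chr17:43483725-43484024, + strand): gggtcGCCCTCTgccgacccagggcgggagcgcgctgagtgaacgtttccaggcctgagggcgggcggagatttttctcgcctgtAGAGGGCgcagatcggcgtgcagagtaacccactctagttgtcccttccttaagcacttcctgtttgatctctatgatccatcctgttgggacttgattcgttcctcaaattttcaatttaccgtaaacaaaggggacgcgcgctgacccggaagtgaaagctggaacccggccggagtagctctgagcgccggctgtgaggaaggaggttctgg
MAML2 (returned, chr11:96343146-96343445, - strand): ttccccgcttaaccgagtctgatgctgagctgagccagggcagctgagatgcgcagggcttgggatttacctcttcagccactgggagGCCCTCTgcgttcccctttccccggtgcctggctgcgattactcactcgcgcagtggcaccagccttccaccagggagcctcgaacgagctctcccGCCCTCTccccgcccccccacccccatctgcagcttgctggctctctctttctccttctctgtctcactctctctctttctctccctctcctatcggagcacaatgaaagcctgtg
PDS5B (returned, chr13:32586202-32586501, + strand): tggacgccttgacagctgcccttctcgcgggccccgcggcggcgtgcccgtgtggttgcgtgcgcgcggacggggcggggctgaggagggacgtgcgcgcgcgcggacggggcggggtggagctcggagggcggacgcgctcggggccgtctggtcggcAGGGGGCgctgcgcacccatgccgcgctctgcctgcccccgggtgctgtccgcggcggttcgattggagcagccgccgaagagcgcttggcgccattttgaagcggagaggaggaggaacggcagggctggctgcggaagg

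The windows do not cover the sites alike. The site overlapped 93, 124 and 59 of the 300 bases of the INAVA, TOB1 and MCF2L windows, against 298, 300 and 300 of the DHX8, MAML2 and PDS5B windows, so matches in them do not compare the bound sequence. None of the 3 promoters whose site did not return held a match. DHX8 held 2, at bases 6 to 12 and 86 to 92 of its window, MAML2 held 2, at bases 89 to 95 and 185 to 191, and PDS5B held 1, at bases 160 to 166. G and C made up 64.0, 41.3 and 77.0% of the INAVA, TOB1 and MCF2L windows, and 57.7, 61.3 and 75.7% of the DHX8, MAML2 and PDS5B windows. Median G and C content was 62.3% over 22132 protein-coding promoters, 60.7% in those without a RAD21 site and 69.3% in those at a shared site. Without this content held equal, a match was found in 34.5, 32.7 and 50.7% of them in that order. By recovery it was found in 51.4% of 348 promoters whose shared site was in all 3 recovery lists, 51.4% of 247 in 2 lists, 50.4% of 488 in 1 list and 2 of 10 in none. Different forms cannot match at the same bases on a strand, and they were taken in place of a longer pattern after the windows had been read.

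Sites called in recovery and not before stress were found almost only in replicate 2. No site was in all 3 recovery lists and in no unstressed list, which is 0% of all sites. This count needs presence in both short lists, and without recovery replicate 1 there were 4. Sites of a recovery list that no unstressed list held numbered 15, 2137 and 56 in replicates 1 to 3, which is 0.343, 10.5 and 0.864% of the sites of each list. Those of replicate 2 were weak, with a median percentile of 13.6 within its list, and 0.234% of them were in another recovery list. Of the 2137, 39.5% were at gene ends, and of the shared sites in the same list 17.5% were, without strength held equal. Among shared sites the part at gene ends was 49.2% in the lowest of the 10 classes of rank before stress and 8.02% in the highest. A peak of the CTCF recovery library, which is tagged with triptolide but not titled with it, overlapped 74.9% of the 2137 sites. Of the same sites 26.0% were in the RAD21 recovery list titled with triptolide and 70.1% in the RAD21 list titled no stress with triptolide. The tag of the latter does not name triptolide. Of the shared sites in replicate 2, the CTCF recovery library held 99.2%, without strength held equal. The RAD21 lists titled with triptolide held 99.2% of them in recovery and 99.9% without stress.

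At equal list length 28 of the 2611 sites shared by the unstressed lists were in no recovery list. Of the 2764 sites shared by the recovery lists, 22 were in no unstressed list. With the 1 h lists in place of recovery the counts were 321 and 225. Of the 28 sites, 7 lay at gene ends, near MUC1, CRABP2, DUSP23, SIPA1L2, HOXC10, RPS26 and CDC37, and all 28 lay on CTCF sites. Of the 22, 4 lay at gene ends, near RHOC, ITGAX, RPL26 and MED13. In the full lists 98.3% of all shared sites lay on CTCF sites and 17.4% at gene ends. Those shares are no background for sites of the strongest peaks. The part at gene ends was 49.2% in the lowest class of rank before stress and 8.02% in the highest. The shares over the 2611 and 2764 sites are not given here. These 11 genes were picked after their values were seen. In the full lists the 7 sites were called in 1 or 2 recovery libraries, and the other 4 were called in all 6 libraries. The RPS26 site, at the start of a ribosomal protein gene (chr12:56041420-56041905), had 13.2 in recovery replicate 2 and no peak in replicates 1 and 3, against 15.6, 13.1 and 16.1 without stress. The RPL26 site (chr17:8383391-8383936) was in every recovery list and no unstressed list after the cut, which went by -log10 p. Its fold enrichment was 6.70, 18.8 and 4.74 in recovery, against 10.4, 6.78 and 6.20 without stress. By fold enrichment recovery replicate 2 alone was above every unstressed value.

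RAD21 peaks lay on CTCF sites in both groups. The share at CTCF sites was 98.6, 90.7 and 98.4% in recovery replicates 1 to 3, against 93.4, 89.0 and 91.7% without stress. The mean was 95.9 ± 4.53% in recovery and 91.4 ± 2.22% without stress (SD, n = 3 each), and the difference of 4.53 points did not exceed the spread between libraries (exact 2-sided permutation test, p = 0.3). It was 3.47 points within set 1 and 6.65 in set 2. At equal list length it was -0.26, and with CTCF sites of all 3 lists it was 12.4.

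The share of peaks within 1 kb of a gene end was 16.3, 21.4 and 12.3% in recovery, against 17.4, 27.4 and 10.5% without stress. The difference in means was -1.77 points (exact 2-sided permutation test, p = 0.8), -3.55 within set 1 and 1.80 in set 2. In Pol II regions lay 30.2, 30.6 and 26.4% of recovery peaks, against 29.2, 36.0 and 24.1% without stress. The difference was -0.66 points (exact 2-sided permutation test, p = 1), -2.17 within set 1 and 2.37 in set 2. For gene ends and Pol II regions the groups overlapped, and no direction can be given, since the sets differed in sign.

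Sites at gene ends were weaker than other shared sites, with a median rank of 49.8 percent, and their share in recovery depended on whether rank was held equal. Recovery replicates 1 to 3 held 40.9, 98.8 and 44.7% of the 1752 shared sites at gene ends. The difference from shared sites elsewhere was 0.0041, 1.19 and -14.5 points. Averaged within 5 classes of rank, it was 16.3, 2.17 and 5.07 points, with averages above 0 in 3 of 3 recovery libraries and a mean of 7.83 ± 7.44 points (SD, n = 3, exact 2-sided sign-flip permutation test over libraries, p = 0.25, the smallest possible). Within single classes the difference was above 0 in 5 of 5 for replicate 1 and in 4 of 5 for replicates 2 and 3, and in the highest class replicate 3 held 93.7% of sites at gene ends and 96.1% of the others. In the middle class replicate 1 held 54.5% of sites at gene ends and 29.7% of the others, replicate 2 held 100 and 99.0%, and replicate 3 held 67.0 and 56.8%. At 1 h the same average was -1.51, 10.2 and -8.10 points, so the direction varied between those libraries.

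Shared sites in Pol II regions of unstressed cells were also compared with those outside. The difference was 3.24, 0.23 and -5.37 points in recovery replicates 1 to 3, with a mean of -0.63 points (exact 2-sided sign-flip permutation test, p = 1). Averaged within classes of rank it was 9.27, 1.00 and 3.12 points in recovery replicates 1 to 3, with a mean of 4.46 ± 4.29 points (SD, n = 3, exact 2-sided sign-flip permutation test, p = 0.25). At 1 h the average was -2.14, 3.23 and -5.55 points. The difference between recovery and 1 h libraries in these values was not tested.

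**Figure D4:**
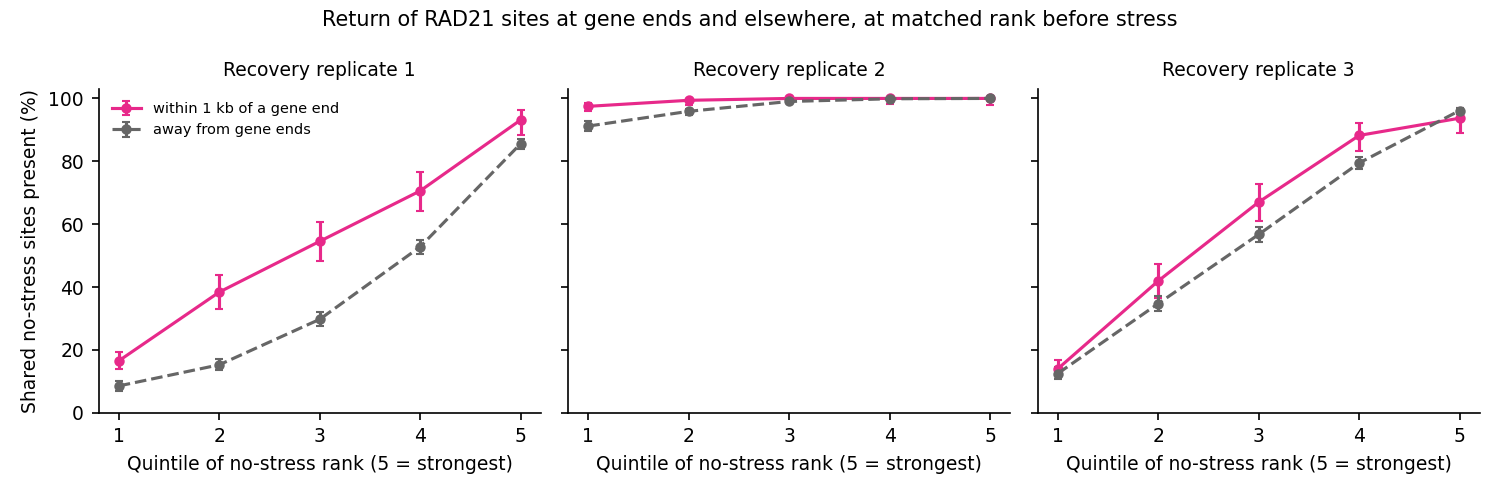
Percent of shared no-stress sites present in recovery replicates 1, 2 and 3 (panels), for sites within 1 kb of a gene end (solid) and elsewhere (dashed), by quintile of fold enrichment rank in unstressed cells; bars are exact binomial 95% intervals and cover counting error alone. In the middle quintile of replicate 1 the values are 54.5 and 29.7%.

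Genes of the early response to stress and growth signals had 14 shared sites near 12 of 30 genes. Recovery replicates 1 to 3 held 6, 14 and 8 of them, and 4, 6 and 4 sites were in 1, 2 and 3 recovery lists. Of all gene end sites 45.5, 21.2 and 32.2% were in 1, 2 and 3 recovery lists. The share of all protein-coding genes with a shared site is not given here, so the numbers of genes with a site have no background. KLF4, a transcription factor of epithelial differentiation, had a site over its start (chr9:107489397-107490480) that was absent from all 1 h lists and in all recovery lists, with 3.89, 11.3 and 2.44 in recovery, against 6.73, 5.59 and 4.29 without stress. A weaker KLF4 site just beside it had 4.63 in recovery replicate 2 and no peak in the others, against 4.70, 4.20 and 2.35. DUSP1 and DUSP6, phosphatases that switch off MAP kinases, each had a site that was absent at 1 h and was called in recovery replicates 2 and 3. For DUSP1 it had 6.99 and 2.16 in those, against 9.17, 6.51 and 4.58 without stress. For DUSP6 it had 5.73 and 2.43, against 4.26, 4.46 and 3.05. EGR2, DUSP10 and MYC had a site in all recovery lists, JUND, KLF6, KLF10 and NR4A1 in 2, and IER5 in 1. DUSP4 had 2 sites, each in recovery replicate 2 alone.

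Of the osmolyte and NFAT5 pathway, which lets cells build up compatible solutes, 4 of 16 genes had a shared site. The site at SLC12A2, a sodium, potassium and chloride cotransporter, was in all recovery lists with 4.43, 9.95 and 2.52, against 8.54, 7.60 and 4.62 without stress. That of WNK1, a kinase that senses chloride and osmotic change, was in 2. The sites of NFAT5, the transcription factor of tonicity, and SLC6A6, the taurine carrier, were in recovery replicate 2 alone, with 7.67 and 8.76, against 5.42, 6.31 and 3.76 for NFAT5 and 8.15, 5.62 and 4.31 for SLC6A6 without stress.

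Luminal breast identity genes had 11 shared sites near 10 of 25 genes, of which 7 were in recovery replicate 2 alone, beside 45.5% of all gene end sites in 1 list. The site near MUC1, an epithelial surface mucin, had 7.68 there and none in the other recovery libraries, against 9.21, 5.95 and 7.04 without stress. That near CDH1, the epithelial cadherin, had 7.70 there, against 9.95, 7.36 and 6.14. The sites of KRT18 and TFAP2C were in all recovery lists, with 4.65, 9.35 and 4.81 for KRT18, against 12.2, 8.24 and 7.57. All 3 sites of oestrogen and progesterone targets, at CCND1, SIAH2 and RARA, were in recovery replicate 2 alone, beside 45.5% of all gene end sites in 1 list. Rank before stress was not held equal in these comparisons. The median rank was 36.8 percent for the luminal sites and 31.7 for the oestrogen and progesterone targets, against 49.8 for all gene end sites. CCND1, cyclin D1, had 6.52 there, against 4.06, 4.59 and 3.09 without stress.

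Cohesin and its partners had 6 shared sites near 6 of 18 genes. Those of STAG1, PDS5B and YY1 were in all recovery lists, that of STAG2 in replicates 1 and 2, and those of CTCF and PDS5A in replicate 2 alone. Over all gene end sites 32.2% were in 3 lists, 21.2% in 2 and 45.5% in 1. STAG1, a subunit that binds RAD21, had 7.24, 22.8 and 6.50 in recovery, against 21.1, 15.8 and 11.2 without stress. The site over the start of CTCF itself had 10.4 in recovery replicate 2, against 6.11, 8.59 and 3.68. Of genes of Pol II elongation and termination, CDK9, ELL2 and CPSF1 had a site in all recovery lists and HEXIM1 in replicate 2 alone.

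Cytosolic ribosomal protein genes had 7 shared sites near 7 of 75 genes, with 4, 1 and 2 in 1, 2 and 3 recovery lists. The shares over all gene end sites were 45.5, 21.2 and 32.2%. RPL10A kept a site in all lists, with 9.81, 34.2 and 6.40 in recovery, against 20.7, 23.7 and 15.6. The clustered protocadherins, whose promoter choice depends on CTCF and cohesin, had 6 shared sites, of which 5 were in recovery replicate 2 alone and that of PCDHAC1 in all, again beside 45.5% of all gene end sites in 1 list. The HOX clusters had 6 shared sites, with 1, 3 and 2 in 1, 2 and 3 recovery lists, beside the shares over all gene end sites given above. The only glycolysis gene with a site, PKM, had it in all recovery lists and in no 1 h list, with 6.60, 13.6 and 8.22 in recovery, against 14.2, 12.9 and 13.6. Heat shock chaperones had no shared site. The other lists, of the integrated stress response, p53, NF-kappa B, proteasome, imprinted, haematopoietic, fibroblast and neuronal or muscle genes, had 1 to 4 each.

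In none of the 19 lists was a shared site missing from every recovery list, and recovery replicate 2 held all of their sites. Over all gene ends 1.14% of shared sites were in no recovery list, 45.5% in 1, 21.2% in 2 and 32.2% in all 3. Rank before stress differed between the lists and was not held equal. The median rank was 32.0 percent for the early response list, 33.8 for the osmolyte list and 79.3 for the HOX clusters. Over all gene end sites it was 49.8.

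**Figure D5:**
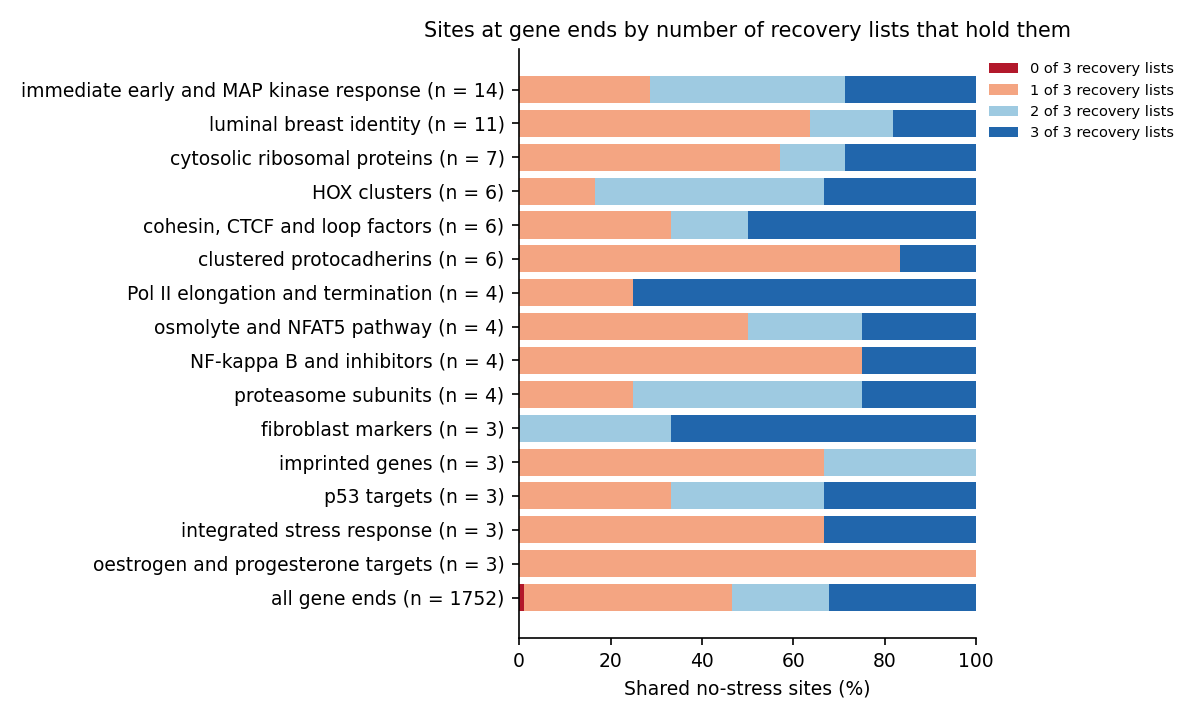
Percent of shared no-stress sites at gene ends held by 0, 1, 2 or 3 RAD21 recovery lists (colours) for gene lists with at least 3 such sites, with all gene ends in the lowest bar; n is the number of sites. In no list is a site missing from every recovery list, and the part in all 3 is 32.2% over all gene ends. Rank before stress is not held equal.

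The share of returned sites differed between chromosomes, without a test. Sites in all 3 recovery lists ran from 18.9% of 148 shared sites on X and 22.0% of 268 on chromosome 4 to 41.0% of 630 on chromosome 11. The sites of X and chromosome 4 also had the lowest median ranks before stress, 60.8 and 60.4 percent, against 68.6 on chromosome 11. Rank and return did not go together throughout, since chromosome 21 had the highest median rank, 70.0, with 32.6% returned, and chromosome 16 had 63.2 with 38.2% returned. Recovery replicate 2 held from 95.9% of the shared sites, on chromosome 6, to 99.6%, on chromosome 4.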

How the data were processed

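Peak lists of RAD21, CTCF and Pol II chromatin immunoprecipitation from T47D cells were used as deposited, each from a single library. Tools listed in the submitters' processing notes are MACS2, cutadapt and Bowtie2 (version 2.2.6), with the build hg38, and in set 1 DESeq2, HOMER and DiffBind (2.4.6) as well. What each did, the calling threshold and the control are not given in the sources used. Deposited for every peak are the authors' fold enrichment (a ratio to the caller's background), -log10 p and -log10 q, with which peaks were ranked or filtered inside a list. The deposited integer score was not used.

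Samples were grouped by title; title and tag disagree on triptolide in 6 of 12 libraries of set 2. Members, gene lists and tests were chosen with earlier results of these data known. Python 3.11.15, numpy 2.4.6, pandas 2.3.3, scipy 1.17.1 and matplotlib 3.10.9 were used. Overlapping peaks (1 bp) of the 6 lists were merged into sites. A site is returned when in all 6 lists, not returned when in all 3 no stress and no recovery list, and new in the opposite case. Group differences were tested by exact 2-sided permutation over libraries (smallest p 0.1 for 3 against 3, 0.333 for 2 against 2), and differences within libraries by sign flips (smallest 0.25). The background at each peak was recovered from fold enrichment and -log10 p, and the commonest value was taken for the list. Genes were 19974 protein-coding genes of RefSeq's GRCh38.p14 table, which has no strand, so both gene ends were used; starts came from its promoter table. Genes named are those nearest to at most 10 gene-end sites (1 kb) per class, ordered by their lowest percentile of fold enrichment over the unstressed lists, and the members of 19 gene lists that had a shared site. Functions were tested on simulated lists. No lists were identical (0 pairs). The alternatives tried were thresholds on -log10 q and fold enrichment of 5, equal list length, each library left out, each set alone, a replicate block, summits merged within 200 bp, 2 of 3 lists, other CTCF and Pol II references and other windows at gene ends.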

Additional observations from a re-analysis of the deposited data

How the results depend on the processing

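No alternative took the difference in peak number past 0 or past the threshold of 0.05, which 3 libraries against 3 cannot reach; leaving out each library gave log2 ratios of -1.79 to -0.68. The counts of sites moved with the libraries, the list length and the call rule. Leaving out each library gave 206 to 3790 sites not returned, 3552 to 5710 returned and 0 to 4 new, a mean share of shared sites present of 48.8 to 77.3%, and differences of 3.16 to 7.15 points at CTCF sites, -5.75 to 2.72 at gene ends and -3.49 to 2.48 in Pol II regions. The last 2 turned positive without no stress replicate 2 (2.72 and 2.48) and without recovery replicate 3 (0.42 and 0.67). Within set 1, 373 sites were not returned and 11 were new. Within set 2, with 1 library against 1, 25.7% of sites were present, 18525 were not returned, 6403 returned and 77 new, and the differences at gene ends and in Pol II regions were 1.80 and 2.37 points. The difference at CTCF sites was 1.92 points with a fold enrichment of at least 5 and 12.4 with CTCF sites of all 3 lists. With the equal number of strongest peaks 28 sites were not returned, 2147 returned and 22 new, and the difference at CTCF sites was -0.26 points. Calling a site present in at least 2 of 3 lists gave 2425, 6981 and 5. Pol II regions of either list gave a difference of 0.96 points. Recovery replicate 2 alone, an alternative chosen after seeing the data, held 97.8% of shared sites. For these results the cause was not tested, other than that a set or a left-out library changes how many lists must hold a site.

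With a replicate block the values stayed -1.14, 4.53, -1.77 and -0.66, since the design is balanced, with exact sign-flip p = 0.5, 0.25, 0.75 and 1. Libraries with the same number correlated by -0.17, 0.12 and 0.15 in their deviations, and not every library correlated best with its own number. Deviations from means of 3 libraries cannot decide whether the numbers pair the samples. The share of peaks at gene ends was highest in replicate 2 of both groups (21.4% in recovery, 27.4% without stress). It was lowest in replicate 3 of both (12.3 and 10.5%). The tests without a block count such a common part as spread between libraries. Sites, regions and gene ends are no replicates, and depth is known only through the caller's background.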
